A study of Mus musculus with 4 samples.

Results

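The genes described here encode the enzymes that write, maintain and remove DNA methylation and those that methylate histone H3 at sites of silenced chromatin. The set consisted of *Dnmt1*, *Dnmt3a*, *Dnmt3b*, *Uhrf1*, *Tet1*, *Tet2*, *Tet3*, *Ezh1*, *Ezh2* and *Suv39h1*, a list of names with no threshold on the values. The list was chosen with earlier results of these data known. Of these 10 genes, 9 had a probe set among the 19938 genes of the array table, and all 9 passed the filter on low signal. *Suv39h1* has no entry in the probe annotation used here and was not analysed here. Naive CD8+ T cells were obtained by magnetic negative selection from wild-type C57BL/6 mice (spleen and lymph node) and differentiated for 2 days into cytotoxic T lymphocytes (CTL) or into IL-17-producing CD8+ T cells (Tc17). Both cultures contained IL-2 and an antibody blocking IFN-γ, and to Tc17 cultures IL-6 and TGF-β were added. The methods of the study describe priming of Tc17 cells with antibodies to CD3 and CD28. Each group had 2 biological replicates with 1 array apiece, 4 arrays together, and the question was how the transcripts of Tc17 cells differ from those of CTLs after the same time in culture. Whether separate mice gave the replicates is not stated, so p-values measure the spread between these cultures, which may be technical. The test draws that spread largely from all genes tested and less from the replicates of each gene.

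DNA methylation at CpG sites is set by DNMT3A and DNMT3B and is copied after replication by DNMT1, which UHRF1 recruits to hemimethylated DNA. The TET dioxygenases oxidise methylcytosine and so start its removal. EZH2 and its paralogue EZH1 are the alternative catalytic subunits of Polycomb repressive complex 2 (PRC2), which trimethylates lysine 27 of histone H3, while SUV39H1 trimethylates lysine 9. In CD8+ T cells, DNMT3A and EZH2 are known for silencing genes of the naive and memory states as effector cells form, and EZH2 is abundant in dividing lymphocytes whereas EZH1 is the form found in resting cells.

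The values were log2 RMA intensities, so a difference of 1 is a factor of 2, and differences are given as Tc17 minus CTL with the standard error of the limma fit. The groups bore out their labels, since *Il17f*, a type 17 cytokine, measured 2.94 and 3.35 in CTL and 9.22 and 8.70 in Tc17, and *Ifng* measured 10.57 and 10.08 in CTL and 5.91 and 6.24 in Tc17. Of 7 CD8 T cell markers measured, 5 were higher in Tc17 (8.22% of all genes were), namely *Cd3d*, *Cd3e*, *Cd3g*, *Cd8a* and *Zap70*, and the summed linear signal of all 7 was 2622 and 2774 in CTL against 4334 and 4519 in Tc17. Among markers of other cells, *Cd4* stayed between 2.83 and 3.28 on all arrays. The summed signal of 6 B cell markers was 59.3 to 66.6 in CTL and 73.3 to 73.9 in Tc17, that of 10 myeloid and dendritic cell markers 70.0 to 76.9 and 82.4 to 97.0, that of 6 NK cell markers 36.4 to 39.7 and 35.5 to 36.2, that of 3 CD4 T cell markers 45.5 to 47.5 and 32.0 to 37.6, and that of 2 γδ T cell markers 18.7 to 18.9 and 21.3 to 21.5. In these lists *Cd68*, a macrophage marker, was higher in Tc17 (4.28 and 3.91 in CTL, 5.32 and 4.89 in Tc17). The other 5 of 6 tested myeloid and dendritic cell markers did not pass, and *Csf1r* lay lower in Tc17 (3.03 and 3.01 in CTL, 2.75 and 2.78 in Tc17). *Zbtb7b*, a CD4 lineage factor, was lower (4.97 and 5.16 in CTL, 4.53 and 4.34 in Tc17). None of 5 tested B cell markers passed, among them *Cd79b* (4.78 and 4.53 in CTL, 5.14 and 5.02 in Tc17). *Cd68*, *Zbtb7b* and *Cd79b* were the brightest genes of the myeloid, CD4 and B cell lists and weigh most in those sums. *Blk* is counted in both the B cell and the γδ T cell lists. It measured 2.70 and 2.99 in CTL and 3.15 and 3.34 in Tc17, and did not pass. *Sox13*, the other γδ T cell marker, overlapped between the groups. The part of these shifts in the results that follow was not tested, and in RNA from whole cultures fewer cells of a type and less RNA per cell cannot be told apart.

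Among the 9 genes, 3 passed the test at an adjusted p of 0.05, against 15.7% of all 14953 genes tested. *Ezh2* and *Dnmt3a* were lower in Tc17 (7.44% of all genes were lower) and *Ezh1* was higher (8.22%). In 6 of the 9 genes both Tc17 arrays lay below both CTL arrays, which held for 24.8% of all genes, and in 1 gene both lay above, which held for 29.6%. The difference was below 0 in 8 of the 9 genes and in 6939 of all 14953. The median difference of the 9 genes was -0.24, and that of all genes was 0.02. These genes and the lists of related genes below were chosen with earlier results of these data known. Shares set beside those of all genes therefore describe the lists and do not test them. Without 1 of the arrays, 1 or 2 of the 9 genes passed. When all 35557 rows of the table were tested, including rows with no gene name, none of the 9 passed after adjustment in limma and 5 had an unadjusted p under 0.05, as in the analysis reported, while the calls over all rows numbered 684. Of the related genes that are named as higher or lower in the following, *Eed*, *Cdca7*, *Pcgf5*, *Neil3* and *Gadd45b* passed in that test and the others did not.

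**Figure D1:**
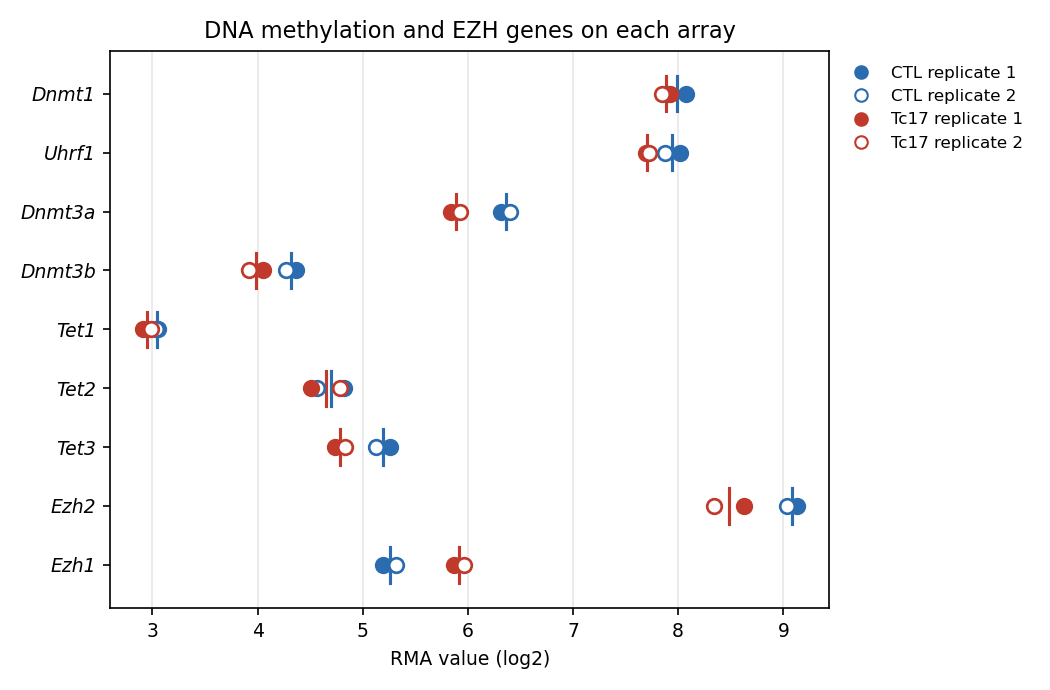
Log2 RMA value of each of the 9 genes (horizontal axis) on each of the 4 arrays, with CTL in blue, Tc17 in red, filled and open symbols for replicates 1 and 2 and short vertical lines at the group means. The Tc17 points of *Ezh2* (8.63 and 8.34) lie left of its CTL points (9.13 and 9.04), and those of *Ezh1* (5.87 and 5.96) lie right of its CTL points (5.19 and 5.32).

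The promoter windows of the 3 genes that passed the test are shown to give the sequence context of the loci whose transcripts differed. They run from 250 bases before to 30 bases after the RefSeq transcription start on GRCm38.p6, 5′ to 3′ on the strand of the gene. Capitals mark a match to E2F consensus letters, which were searched because E2F factors are known to drive genes of the S phase. The letters were TTTCCCGC, TTTGGCGC, TTTCGCGC and TTTGCCGC on either strand. The *Ezh2* window is at chr6:47595001-47595280 on the minus strand, that of *Ezh1* at chr11:101226434-101226713 on the minus strand, and that of the first of the 3 *Dnmt3a* starts at chr12:3806730-3807009 on the plus strand.
Ezh2: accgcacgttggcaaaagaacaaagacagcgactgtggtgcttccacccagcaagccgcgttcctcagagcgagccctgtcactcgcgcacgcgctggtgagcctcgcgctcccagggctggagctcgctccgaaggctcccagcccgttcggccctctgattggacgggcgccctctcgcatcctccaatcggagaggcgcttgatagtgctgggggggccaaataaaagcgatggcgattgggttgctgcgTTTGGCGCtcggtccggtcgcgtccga
Ezh1: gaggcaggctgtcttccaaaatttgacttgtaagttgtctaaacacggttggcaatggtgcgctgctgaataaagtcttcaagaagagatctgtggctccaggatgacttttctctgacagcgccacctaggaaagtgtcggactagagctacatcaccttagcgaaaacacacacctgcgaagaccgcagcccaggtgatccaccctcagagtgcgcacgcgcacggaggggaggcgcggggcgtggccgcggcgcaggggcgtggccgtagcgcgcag
Dnmt3a: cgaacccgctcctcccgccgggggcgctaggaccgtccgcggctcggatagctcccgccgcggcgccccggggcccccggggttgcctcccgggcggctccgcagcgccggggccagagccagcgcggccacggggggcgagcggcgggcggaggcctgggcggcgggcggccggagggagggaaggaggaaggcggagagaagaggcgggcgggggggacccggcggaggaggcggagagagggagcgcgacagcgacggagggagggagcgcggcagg
The *Ezh2* window held TTTGGCGC beginning at base 4 after the start, and those of *Ezh1* and the first *Dnmt3a* start held none of the letters. Over the 16 start sites listed for all 10 genes, 4 windows of 4 genes held a match, against 2.12% of 32851 windows of all genes. The other 3 were GCGCGAAA, the reverse complement of TTTCGCGC, at the third start of *Dnmt1*, TTTCGCGC at the second start of *Uhrf1*, and GCGGCAAA, the reverse complement of TTTGCCGC, at the second start of *Suv39h1*. A match describes letters only and does not show that a factor binds. The windows held 30 CpG dinucleotides for *Ezh2*, 21 for *Ezh1* and 43 for the first *Dnmt3a* start, against a median of 6 over all windows. The 4 windows with a match held 30 to 32. The searched letters all contain CG, and the share with a match among windows of like CpG count was not computed.

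*Ezh2*, the PRC2 methyltransferase that prevails in dividing cells, was lower in Tc17. Its probe set (10544501) measured 9.13 and 9.04 in CTL and 8.63 and 8.34 in Tc17. The groups did not overlap, and the Tc17 replicates lay farther apart than the CTL replicates (8.48 ± 0.21 against 9.08 ± 0.06, SD, n = 2). The difference was -0.60 ± 0.14 (95% interval -0.91 to -0.29), 1.51-fold lower, with a limma adjusted p of 0.0139. It no longer passed without CTL replicate 1 (-0.55, limma adjusted p = 0.0772) or without Tc17 replicate 2, the lowest array (-0.45, limma adjusted p = 0.122).

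*Ezh1*, the paralogue that serves PRC2 in resting cells, moved the other way. Its probe set (10391378) measured 5.19 and 5.32 in CTL and 5.87 and 5.96 in Tc17, so that both Tc17 arrays stood above both CTL arrays. The difference was 0.66 ± 0.13 (95% interval 0.37 to 0.94), 1.58-fold higher, with a limma adjusted p of 0.00515. It passed without any 1 of the arrays, at 0.60 to 0.72.

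The *Ezh2* value minus the *Ezh1* value on the same array was 3.93 and 3.72 in CTL and 2.76 and 2.38 in Tc17. Each gene has its own probes, so the size of this gap has no meaning as a ratio of transcripts, and only its shift between groups is read. The gap was smaller on both Tc17 arrays than on either CTL array, by 1.26 on average, and by 1.06 to 1.45 when an array was left out. This follows from the opposite directions of *Ezh2* and *Ezh1* given above, so the shift is a summary of them and no separate result. An exact permutation test of 2 against 2 arrays cannot give a two-sided p below 0.333.

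**Figure D2:**
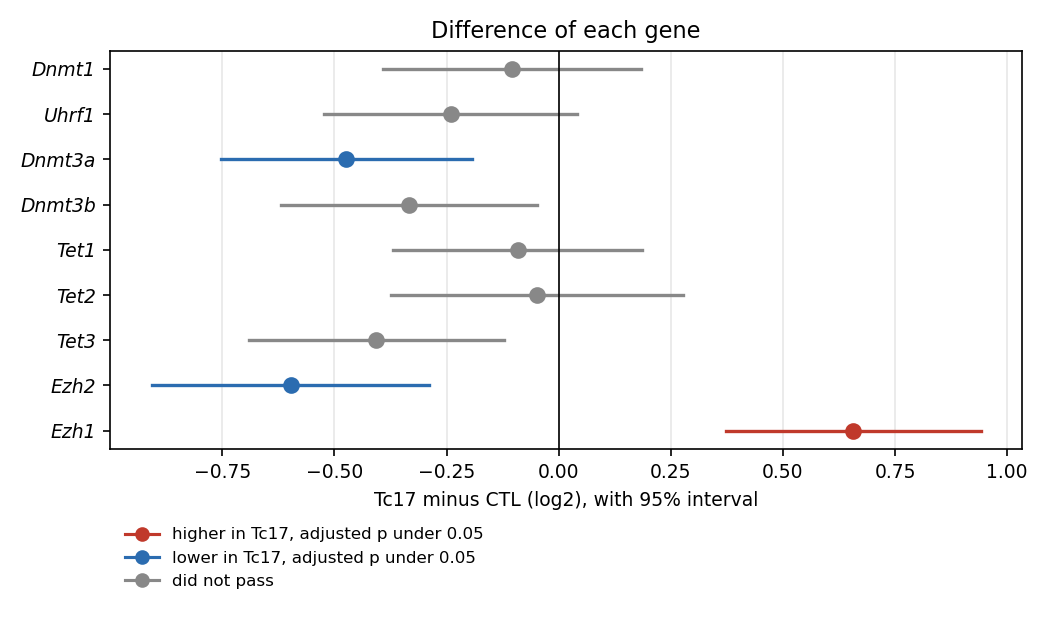
Difference between Tc17 and CTL (log2, horizontal axis) for each of the 9 genes, with the 95% interval of the fit, in colour where the adjusted p was under 0.05. *Ezh1* lies right of 0 at 0.66, *Ezh2* and *Dnmt3a* lie left at -0.60 and -0.47, and the intervals of *Dnmt3b* and *Tet3* lie below 0 although neither passed after adjustment.

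Among the DNA methyltransferases, *Dnmt3a*, which methylates unmodified DNA, passed the test. Its probe set (10394209) measured 6.32 and 6.40 in CTL and 5.84 and 5.93 in Tc17. The groups did not overlap and the replicates were close (SD of 0.06 in both groups, n = 2). The difference was -0.47 ± 0.13 (95% interval -0.75 to -0.19), 1.39-fold lower, with a limma adjusted p of 0.0273. Its size changed little without any 1 of the arrays (-0.43 to -0.52), but none of these 4 fits, each with 3 arrays, passed (limma adjusted p from 0.0717 to 0.121).

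*Dnmt3b*, the other enzyme that methylates unmodified DNA, measured 4.37 and 4.27 in CTL and 4.05 and 3.92 in Tc17. Both Tc17 arrays were below both CTL arrays, by 0.33 on average, but the difference did not pass (-0.33 ± 0.13, limma adjusted p = 0.117). *Dnmt1*, which copies methylation to the new strand, measured 8.07 and 7.90 in CTL and 7.92 and 7.84 in Tc17. These groups overlapped, and the difference was -0.10 ± 0.13 with a 95% interval from -0.39 to 0.18, which leaves room for changes of that size in either direction.

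*Uhrf1*, which brings DNMT1 to replicating DNA, measured 8.01 and 7.88 in CTL and 7.69 and 7.72 in Tc17. The groups did not overlap, and the difference of -0.24 ± 0.13 did not pass (95% interval -0.52 to 0.04, limma adjusted p = 0.267). Of the methyltransferases and this cofactor, *Dnmt3a* alone passed, and whether its change differed in size from those of *Dnmt3b*, *Dnmt1* and *Uhrf1* was not tested.

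None of the 3 TET genes passed in limma after adjustment, and 1, *Tet3*, had an unadjusted p under 0.05. *Tet3* measured 5.26 and 5.13 in CTL and 4.74 and 4.83 in Tc17, with no overlap. Its difference was -0.41 ± 0.13 (95% interval -0.69 to -0.12), with a limma adjusted p of 0.0567 that fell to 0.0438 with a filter at the median and 0.0487 with cyclic loess. A second, dimmer *Tet3* probe set measured 4.35 and 4.27 in CTL and 4.16 and 4.31 in Tc17, where the groups overlapped, and the mean of both probe sets gave -0.24 (limma adjusted p = 0.265).

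*Tet2*, the TET gene best known for mutation in blood malignancies, measured 4.82 and 4.57 in CTL and 4.51 and 4.78 in Tc17. The replicates of each group differed by more than the groups did, and the difference of -0.05 ± 0.15 (95% interval -0.37 to 0.28) became 0.08 without CTL replicate 1 and 0.09 without Tc17 replicate 1. *Tet1* lay below the median of every array (3.18 to 3.20), at 3.05 and 3.03 in CTL and 2.91 and 2.99 in Tc17. The difference was -0.09 ± 0.13 (95% interval -0.37 to 0.18), and 2 further, dimmer *Tet1* probe sets gave -0.06 and 0.03, and no difference was detectable at this signal.

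The other PRC2 subunits were examined next to *Ezh2* and *Ezh1*. All 9 had a probe set and were tested, of which 2 were lower and 7 did not pass. This was 22.2% called, beside 15.7% of all genes, and the median difference was -0.18. *Eed*, the subunit that reads trimethylated lysine 27, measured 6.73 and 6.83 in CTL and 5.99 and 5.93 in Tc17. This was a difference of -0.82 ± 0.13 (limma adjusted p = 0.00130). It passed under all 12 alternative analyses. A second *Eed* probe set of 2.28, under the level kept by the filter, gave -0.11, and the mean of both gave -0.47.

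*Rbbp7*, a histone-binding subunit that PRC2 shares with other complexes, measured 8.76 and 8.90 in CTL and 8.48 and 8.17 in Tc17, and its difference was -0.50 ± 0.14 (limma adjusted p = 0.0357). It did not pass with cyclic loess, with the mean of its probe sets (-0.42, limma adjusted p = 0.0564) or without either CTL replicate or Tc17 replicate 2 (-0.35 to -0.66 over the arrays left out). *Suz12*, the scaffold of PRC2, measured 8.13 and 8.11 in CTL and 7.87 and 7.77 in Tc17, a difference of -0.30 that did not pass. Thus among the catalytic subunits and the core partners *Eed*, *Suz12*, *Rbbp4* and *Rbbp7*, *Ezh1* was the 1 gene with both Tc17 arrays above both CTL arrays. The accessory subunits that direct PRC2 to chromatin gave differences of 0.10 (*Jarid2*), 0.19 (*Aebp2*), 0.34 (*Phf1*), -0.07 (*Mtf2*) and -0.40 (*Phf19*), and none passed. Like *Ezh1*, the accessory genes *Aebp2* and *Phf1* had both Tc17 arrays above both CTL arrays. *Aebp2* measured 7.39 and 7.28 in CTL and 7.59 and 7.47 in Tc17. *Phf1* measured 4.01 and 3.99 in CTL and 4.53 and 4.15 in Tc17.

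**Figure D3:**
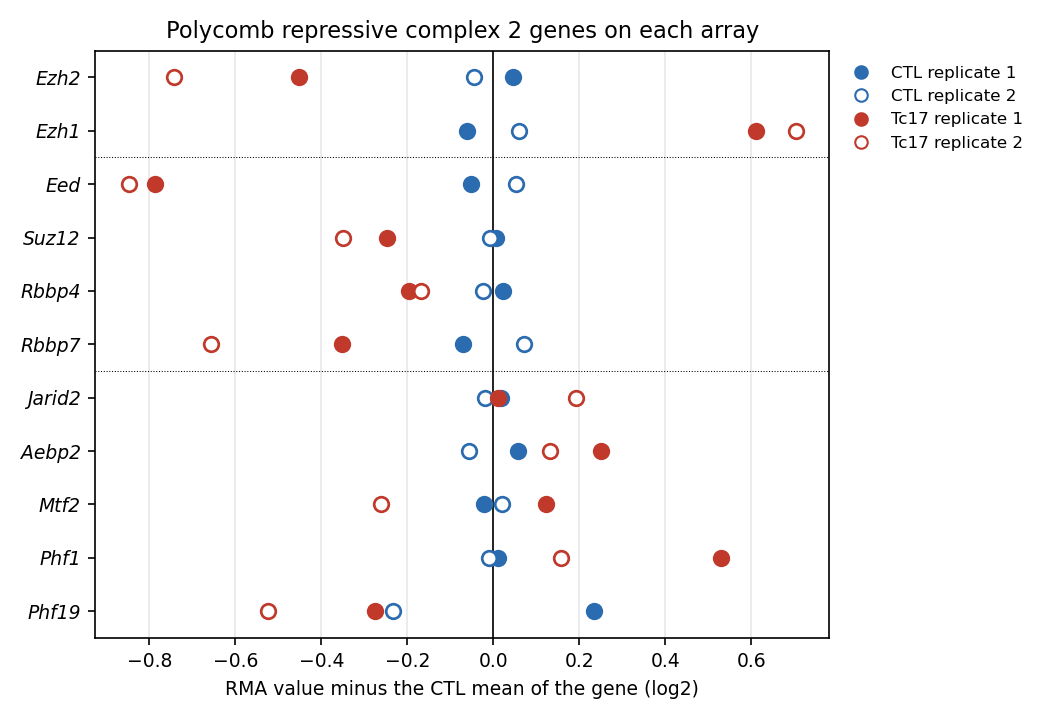
Log2 RMA value minus the CTL mean of the gene (horizontal axis) on each of the 4 arrays for the catalytic subunits of PRC2 (top), the core partners (middle) and accessory subunits (bottom), with CTL in blue, Tc17 in red and filled and open symbols for replicates 1 and 2. The Tc17 points of *Ezh1* lie to the right and those of *Ezh2*, *Eed*, *Suz12*, *Rbbp4* and *Rbbp7* to the left of their CTL points.

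Trimethylated lysine 27 is read by some forms of Polycomb repressive complex 1 (PRC1), and the subunits listed here, *Pcgf5* among them, are not all from those forms. Of 18 measured PRC1 subunits, 2 were lower and 16 did not pass, with a median difference of -0.10. The share called, 11.1%, was below that of all genes (15.7%). *Pcgf5* measured 8.17 and 8.12 in CTL and 6.92 and 7.05 in Tc17, and was 2.23-fold lower (-1.16 ± 0.13, limma adjusted p = 1.34e-04). *Phc3*, a polyhomeotic subunit, measured 7.03 and 6.92 in CTL and 5.93 and 6.23 in Tc17 (-0.90 ± 0.14, limma adjusted p = 0.00137), and its second probe set gave -0.98. Neither of the 2 demethylases that remove the mark passed (0 also at an unadjusted p under 0.05 in limma), at -0.16 ± 0.14 for *Kdm6a* and -0.15 ± 0.14 for *Kdm6b*.

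Of 8 tested genes that work with the DNA methyltransferases, 2 were lower (7.44% of all genes were) and 6 did not pass, with a median of -0.24. *Cdca7* and *Hells* encode the subunits of a nucleosome remodeller that DNA methylation needs at heterochromatin. *Cdca7* measured 8.31 and 8.34 in CTL and 7.61 and 7.50 in Tc17 (-0.77 ± 0.13, limma adjusted p = 0.00186), and it also passed under all 12 alternative analyses. *Hells* measured 7.73 and 7.85 in CTL and 7.44 and 6.99 in Tc17 (-0.57 ± 0.16, limma adjusted p = 0.0335), which did not pass with cyclic loess (-0.51, limma adjusted p = 0.0517) or without either CTL replicate or Tc17 replicate 2 (-0.34 to -0.80 over the arrays left out). *Uhrf2*, the paralogue of *Uhrf1*, gave 0.01.

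Of 7 genes for proteins that bind methylated CpG, 2 were higher (8.22% of all genes were) and 5 did not pass, with a median of 0.15. *Mbd2*, which recruits the NuRD repressor to methylated DNA, measured 8.50 and 8.49 in CTL and 9.05 and 9.16 in Tc17 (0.61 ± 0.13, limma adjusted p = 0.00745), and did not pass without Tc17 replicate 2 (0.55, limma adjusted p = 0.0567). *Zbtb4*, a zinc finger protein that binds methylated DNA, measured 3.77 and 3.64 in CTL and 4.13 and 4.27 in Tc17 (0.50 ± 0.13, limma adjusted p = 0.0244). It did not pass without either CTL replicate or Tc17 replicate 2, at 0.43 to 0.57 over the arrays left out.

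Of 15 genes tested that assist TET enzymes or repair the oxidised base, 4 were higher, 2 lower and 9 did not pass, with a median of 0.05. Of all genes, 8.22% were higher and 7.44% lower. *Idh1* makes oxoglutarate, the cosubstrate of TET enzymes and of many histone demethylases, and measured 4.05 and 3.86 in CTL and 5.21 and 4.84 in Tc17 (1.07 ± 0.15, limma adjusted p = 7.67e-04). *Neil3*, a DNA glycosylase, measured 5.18 and 5.21 in CTL and 6.32 and 6.07 in Tc17 (1.00 ± 0.14, limma adjusted p = 5.59e-04). The genes that fell were *Gadd45b*, at 7.88 and 7.62 in CTL and 5.88 and 6.23 in Tc17 (-1.70 ± 0.16, limma adjusted p = 3.92e-05), and *Gadd45g* (-0.77 ± 0.13, limma adjusted p = 0.00220). Both are stress-induced genes that also act in cell cycle and kinase signalling.

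For the lysine 9 system that *Suv39h1* belongs to, its paralogue *Suv39h2* measured 4.01 and 3.82 in CTL and 3.64 and 3.50 in Tc17. The difference of -0.34 ± 0.13 did not pass (limma adjusted p = 0.116). Of 10 lysine 9 methyltransferases, their partners and heterochromatin proteins, 1 was higher, 1 lower and 8 did not pass, with a median of -0.20. The share called was 20% here, as among the lysine 9 demethylases, against 15.7% of all genes, and neither share is read as a result. The higher gene was *Atf7ip*, a partner of SETDB1 (0.52 ± 0.14, limma adjusted p = 0.0278), whose call was lost without CTL replicate 2 or Tc17 replicate 1 (0.41 to 0.63 over the arrays left out). A second, dimmer *Atf7ip* probe set gave 1.06, and the mean of both gave 0.79 (limma adjusted p = 0.00130). The lower gene was *Cbx1*, the heterochromatin protein HP1β (-0.50 ± 0.13, limma adjusted p = 0.0188), whose call was lost without any 1 of the arrays (-0.47 to -0.54). Of 10 lysine 9 demethylases and their relatives, 2 were higher and 8 did not pass, with a median of 0.23. These were *Jmjd1c* at 0.98 ± 0.15 (limma adjusted p = 0.00101), whose dimmer second probe set gave 0.28 and the mean of both 0.63, and *Kdm4b* at 0.60 ± 0.14 (limma adjusted p = 0.0146), whose call was lost without CTL replicate 2 or Tc17 replicate 2 (0.47 to 0.72 over the arrays left out).

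All these methyltransferases use S-adenosylmethionine. Of the genes listed for its supply and recycling, *Mat2a* and *Ahcy* had no probe set of their own in the annotation used and were not analysed. Of 6 genes tested that supply or recycle S-adenosylmethionine, 1 was higher and 2 were lower (15.7% of all genes were called in either direction). *Mat2b*, the regulatory subunit of its synthase, measured 6.50 and 6.96 in CTL and 7.23 and 7.48 in Tc17 (0.63 ± 0.17, limma adjusted p = 0.0262), and its call was lost without CTL replicate 1 or Tc17 replicate 2 (0.40 to 0.86 over the arrays left out). *Mtr*, methionine synthase, and *Mtrr*, which reactivates it, gave -0.50 ± 0.13 and -0.52 ± 0.15 (limma adjusted p of 0.0249 and 0.0341), and both calls were lost without CTL replicate 1 or Tc17 replicate 1, that of *Mtr* also without Tc17 replicate 2 (-0.41 to -0.60 for *Mtr* and -0.38 to -0.65 for *Mtrr* over the arrays left out).

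**Figure D4:**
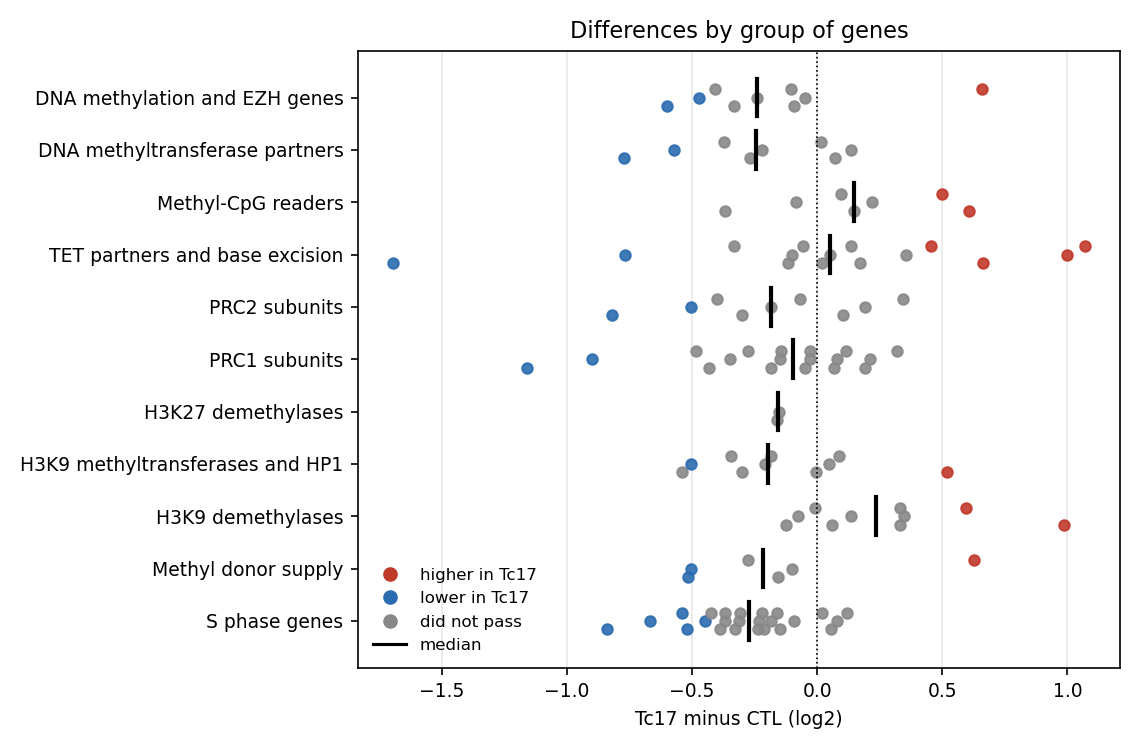
Difference between Tc17 and CTL (log2, horizontal axis) of every gene tested in each group of genes, 1 point per gene, red where higher in Tc17 and blue where lower at an adjusted p under 0.05, with the median of the group as a black line. The medians run from -0.27 for the S phase genes to 0.23 for the lysine 9 demethylases, and *Gadd45b* is the leftmost point at -1.70.

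Several of these genes, among them *Ezh2*, *Uhrf1*, *Dnmt1* and *Hells*, are expressed with DNA replication, so the S phase genes are given beside them. Of 24 tested, 5 were lower in Tc17 (7.44% of all genes were) and 19 did not pass, and 16 had both Tc17 arrays below both CTL arrays (24.8% of all genes). The median difference was -0.27, beside -0.24 for the 9 genes above. The largest decreases were those of *Ccne1*, the cyclin of S phase entry (-0.84 ± 0.16, limma adjusted p = 0.00368), and *Rfc3*, a subunit of the clamp loader (-0.67 ± 0.15, limma adjusted p = 0.00942), and the call of *Rfc3* was lost without CTL replicate 1 or Tc17 replicate 2 (-0.50 to -0.84 over the arrays left out). The summed linear signal of the 24 genes was 4858 and 5033 in CTL and 4414 and 3931 in Tc17. Tc17 replicate 2, the lowest of these, was also the lowest array for *Ezh2*, *Dnmt1*, *Dnmt3b*, *Hells*, *Rbbp7* and *Pcna*, the replication clamp (9.79 and 9.74 in CTL, 9.59 and 9.20 in Tc17, not passed), whereas for *Dnmt3a*, *Uhrf1*, *Tet1*, *Tet2* and *Tet3* the lowest was Tc17 replicate 1. The Tc17 replicates lay close together for *Dnmt1* (7.92 and 7.84) and *Uhrf1* (7.69 and 7.72), and the order of the replicates is not read as a result. The part of S phase transcripts in the differences of these genes was not tested.

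**Figure D5:**
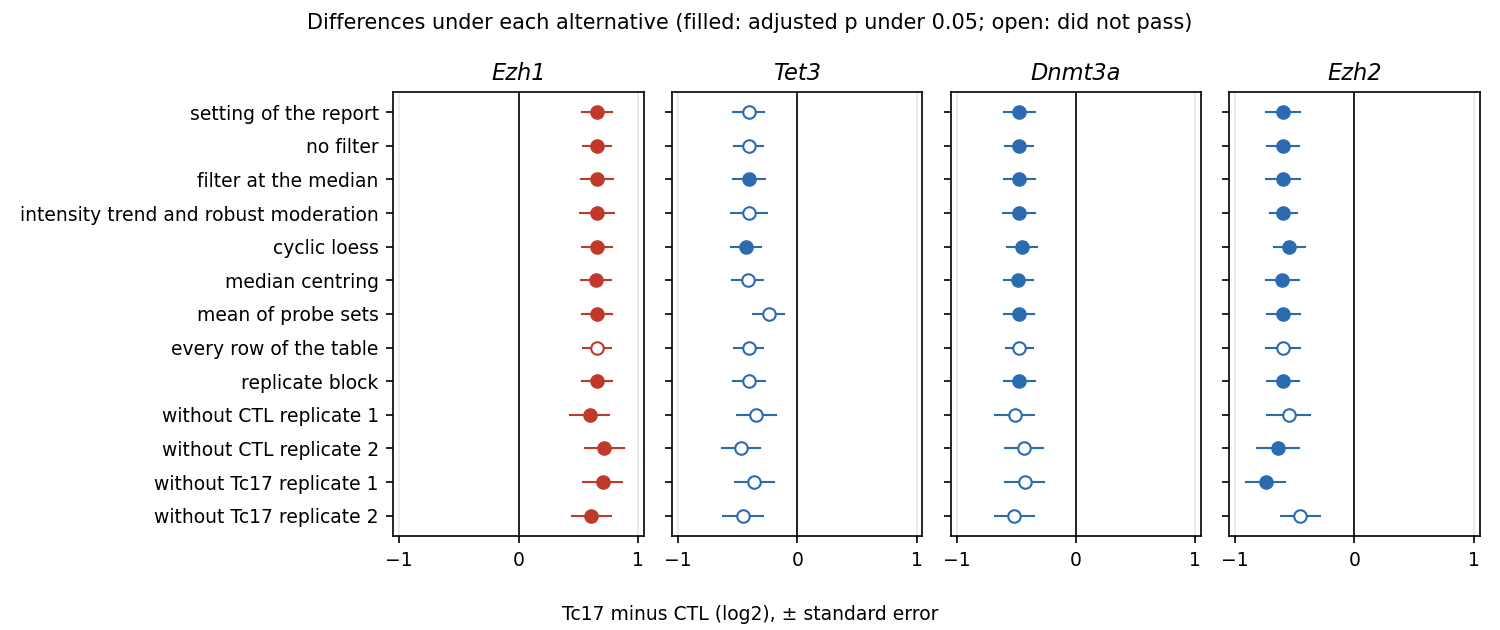
Difference between Tc17 and CTL (log2, horizontal axis) with its standard error for *Ezh1*, *Tet3*, *Dnmt3a* and *Ezh2* in the analysis reported (top row) and under each of 12 alternatives (further rows), filled where the adjusted p was under 0.05. The direction stayed the same in every row, *Ezh1* is open only where every row of the table was tested (0.66), and *Dnmt3a* is open there and wherever an array was left out (-0.43 to -0.52).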

How the data were processed

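Total RNA was amplified, labeled with biotin and hybridised to whole-transcript arrays, 1 per culture. The authors deposited RMA values, which were taken as log2 because they run from 1.18 to 13.7. RMA is named in the submitters' processing notes, and its version was not given in the sources used here. Quantile normalisation in RMA equalises the distributions of the arrays, which hides any shift common to all transcripts, and background compresses differences of dim probe sets. For arrays, their number limits the precision.

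A platform annotation paired 21789 of 35557 rows with 1 gene symbol, 1621 with several and 12147 with none. Rows with 1 symbol were used (21698 matched RefSeq, which changed 0 symbols), the probe set with the highest mean stood for each gene, and genes under the 25th percentile (2.59) were left out. Groups came from the labels. Tc17 and CTL were compared with limma 3.58.1 in R 4.3.3, two-sided and unpaired, with Benjamini-Hochberg adjustment over 14953 genes. Each gene had 2 residual degrees of freedom, and the prior drawn from all genes tested had 8.98 and an SD of 0.138. The code was tested on simulated data. Arrays of a group correlated at 0.993 and arrays of different groups at 0.967 to 0.973 across these genes.

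All members are named, and of each list of related genes the 2 largest increases and decreases past the threshold, or else the smallest p. *Rbbp4*, *Suz12*, *Kdm6b*, *Suv39h2*, *Pcna*, *Uhrf2*, the accessory PRC2 subunits and the cell type markers were named after their values were seen. The members and lists were chosen with earlier results of these data known. Promoter windows came from RefSeq (GRCm38.p6, 27025 genes).

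Alternatives changed the filter (none, or at the median), the moderation (robust, with an intensity trend), the normalisation (cyclic loess or median centring on top of RMA) and the probe sets (their mean, or every row), added the replicate number as a block, or left out each array. Where an array was left out, the lone sample of its group was assumed to vary like the other group. Figures used matplotlib 3.10.9 and pandas 2.3.3 in Python 3.11.15.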

Additional observations from a re-analysis of the deposited data

How the results depend on the processing

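Under the other filters, moderation and normalisations, and with the mean of probe sets, *Ezh1*, *Ezh2* and *Dnmt3a* passed with the same direction, and *Tet3* joined them with the filter at the median and with cyclic loess, which made 4 genes passing in place of 3. With every row of the table, 0 of the 9 genes passed, 0 higher and 0 lower, and 684 rows passed in all. The lowest adjusted p in limma was then 0.0765 (*Ezh1*), and *Ezh2* and *Dnmt3a* stood at 0.132. Leaving out 1 array in turn left 1 to 2 of the 9 genes past the threshold, with 0 to 1 lower and *Ezh1* higher each time, and 1421 to 1924 of all genes in place of 2342. The lowest counts came without CTL replicate 1 and without Tc17 replicate 2, where *Ezh1* alone passed. *Tet2* ran from -0.18 to 0.0863 without 1 array and was the 1 gene of the 9 that changed direction (0.08 without CTL replicate 1, 0.0863 without Tc17 replicate 1). The cause of these changes was not tested. With the replicate block, the same 3 of the 9 genes and 2322 of all genes passed, and the block changed no call among the 9. The numbers were not used to pair arrays, because no label says that a number marks a shared animal or day. The deviations of arrays with the same number correlated at 0.0195, which does not settle whether the cultures were paired. *Eed*, *Cdca7*, *Pcgf5*, *Neil3* and *Gadd45b* passed under all 12 alternatives, while the other related genes named as called did not pass when every row was tested, *Idh1*, *Gadd45g*, *Phc3*, *Jmjd1c* and *Ccne1* in that setting only, and *Hells*, *Rbbp7*, *Mbd2*, *Zbtb4*, *Atf7ip*, *Cbx1*, *Kdm4b*, *Mat2b*, *Mtr*, *Mtrr* and *Rfc3* there as well as without the arrays given with each. Dim probe sets such as those of *Tet1* limit what can be detected.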
